A study of Danio rerio with 24 samples.

Results

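The genes described here encode the proteasome, as it was transcribed in single cells of the whole kidney marrow (WKM), the adult blood-forming tissue of the zebrafish. The members were all genes whose Ensembl name starts with psma to psmg followed by a digit, without psmb8 and psmb9, the inducible catalytic genes of the major histocompatibility complex. The rule found 57 names, of which 50 had a row among the 23981 genes listed, and the other 7 were not analysed here. The 50 genes were constitutive subunits together with activators, an inhibitor and assembly chaperones. Not every constitutive subunit was among them, and psma1, psmd2 and psmd7, for instance, were absent. The label "constitutive" did not cover all of the 50. The rule also took psmb10, psmb11b, psmb12 and psmb13a, which are inducible, thymic-type or histocompatibility-linked beta genes, and psmc3ip and psme3ip1, which are not proteasome subunits. These 6 are kept in the sums and counts over the 50 genes.

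The proteasome degrades proteins that carry ubiquitin chains. Its core particle is a barrel of alpha and beta rings, in which 3 beta subunits (the products of psmb5, psmb6 and psmb7) cut peptide bonds. The regulatory particle caps the barrel, with a base of ATPases (psmc genes) that unfold substrates and non-ATPase subunits (psmd genes) that bind ubiquitin and remove it, while activators (psme genes) open the barrel without ATP. Every cell needs the complex, and its inducible form makes peptides for antigen presentation.

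WKM cells of 3-month-old fish of the strain Tüpfel long fin/Ekkwill were placed singly in wells by their light scatter and read by mCEL-Seq2, a method that counts 1 tag with a molecular identifier from the 3′ end of each captured transcript. Wild-type fish were compared with homozygotes for 1 of 2 alleles of ikzf1, which encodes the zinc finger transcription factor Ikaros. IT325 is a chemically induced nonsense allele that lacks the C-terminal zinc fingers and keeps the DNA-binding ones, and fr105 is a CRISPR deletion whose product keeps only zinc finger 1. Each genotype had 8 libraries, 4 from each of 2 sets called P1 and P2 in the labels, and the 8 libraries of a genotype were sequenced together in a lane, so that lane and genotype cannot be told apart. The labels name no fish, so p-values measure only the spread between these libraries, which may be technical.

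With at least 1500 transcripts required, 1008 cells were kept, of which 345 were wild-type, 359 IT325 and 304 fr105, with 22 to 56 per library. Library totals ran from 86165 to 519252 transcripts, and the shallowest were replicate 4 of wild-type and replicate 4 of fr105. The median transcripts per cell of a library had a median of 3756 in wild-type fish, 6031 in IT325 and 5361 in fr105. All libraries reuse the same plate barcodes (189 positions held cells in more than 1 library), so shared barcodes identify no cell. The tissue label was borne out by markers: 444 cells were neutrophil-like, 107 erythroid-like, 68 macrophage-like, 40 B cell-like and 23 T cell-like, and 70 kidney tubule-like cells came from the surrounding organ. The other 256 cells lay in clusters without a class name. The classes were uneven between genotypes, with erythroid-like cells at 25, 75 and 7 and kidney tubule-like cells at 1, 28 and 41 in wild-type, IT325 and fr105. In the same order B cell-like cells numbered 36, 2 and 2 and T cell-like cells 23, 0 and 0. In sums over a library, fewer cells of a type and less RNA per cell cannot be told apart. ikzf1 itself stood, per 1000000 transcripts, at 58.7 ± 19.3 in wild-type fish, 166 ± 40.2 in IT325 and 133.9 ± 25.3 in fr105 (SD, n = 8 each), and since a 3′ tag does not read either lesion, these levels do not check the alleles.

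The 50 genes together gave 14335 of 6916082 transcripts, which is 0.207% of all molecules counted. A cell held a median of 7.001 member transcripts from 6 different members, and 64 of the 1008 cells held none. Levels are given as transcripts per 1000000 transcripts of the same cells (TPM, here not scaled by gene length). Each molecule was counted once whatever its length, so levels of different genes compare molecules counted, and how well each 3′ end was captured is not known. Single members were sparse, and 34 of the 50 had a transcript in every one of the 24 libraries.

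**Figure D1:**
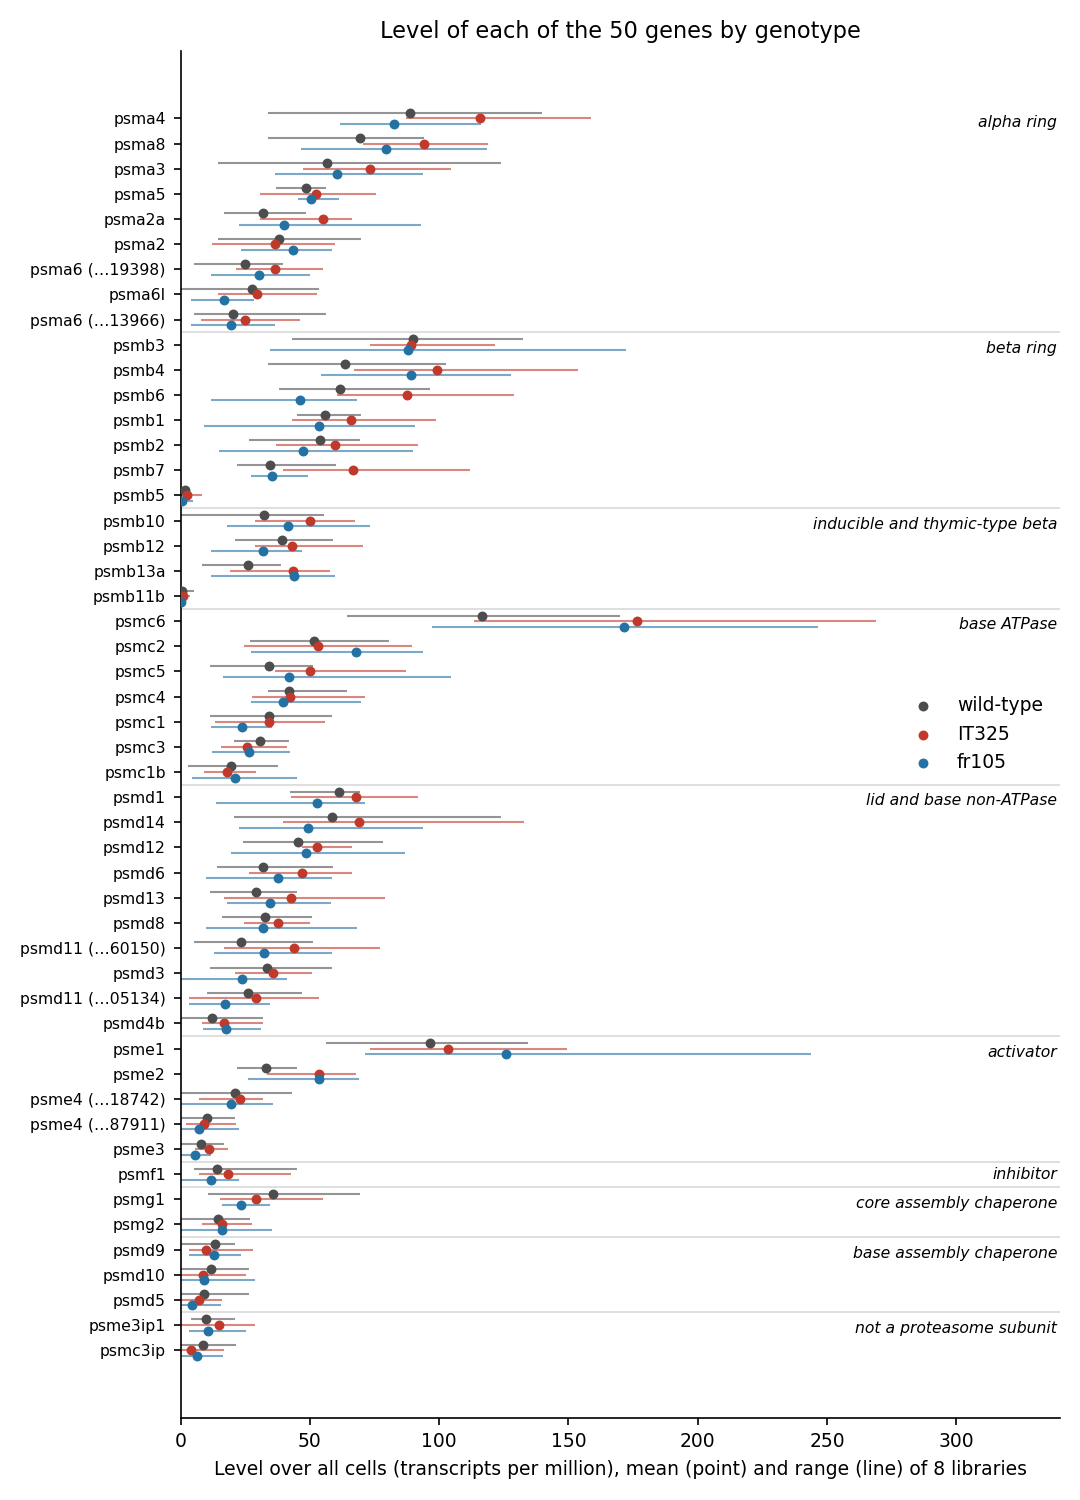
Mean level of each of the 50 genes over the 8 libraries of a genotype (points; horizontal axis, TPM) with lines from the lowest to the highest library, grouped by role in the complex. psmc6 leads, psmb5 and psmb11b lie at the bottom, and in most rows the IT325 point lies to the right of the wild-type point.

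The levels of the members spanned a wide range. The highest mean over the 24 libraries was that of psmc6, an ATPase of the base, at 155. It was followed by psme1, an activator subunit, at 108.6, psma4 of the alpha ring at 95.7, psmb3 of the beta ring at 88.9 and psmb4, also of the beta ring, at 83.9. The lowest were psmb11b, related to the thymic beta subunit of mammals, with 3 transcripts in all cells, psmb5 with 12 and psmc3ip, a meiotic recombination factor, with 38.

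The catalytic subunits were very unequal in counted molecules. psmb6, the caspase-like site, had a mean of 65.2 and psmb7, the trypsin-like site, 45.6, whereas psmb5, the chymotrypsin-like site, had 1.65. psmb5 ranged from 0 to 3.62 in wild-type, from 0 to 8.46 in IT325 and from 0 to 4.94 in fr105, and it was at 0 in 4 of the 8 wild-type libraries. At this depth no difference in psmb5 between genotypes was detectable.

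Several subunits have more than 1 gene in the files. The pair psma2 and psma2a, both of the alpha ring, had similar means of 39.4 and 42.4. Of the psma6 genes, ENSDARG00000019398 had a mean of 30.6, psma6l 24.6 and ENSDARG00000013966 21.6. psmc1 stood at 30.6 beside psmc1b at 19.5. The psmd11 genes stood at 33.3 (ENSDARG00000060150) and 24.03 (ENSDARG00000005134), and the psme4 genes, which encode a large activator, at 21.2 (ENSDARG00000018742) and 8.78 (ENSDARG00000087911). Of the genes in these sets that are not taken up again, psmc1 was tested and did not pass, and the others were too sparse. In the order wild-type, IT325, fr105, psma6l stood at 27.5 ± 17.4, 29.6 ± 13.3 and 16.7 ± 8.70, and ENSDARG00000013966 at 20.1 ± 16.7, 25.1 ± 11.4 and 19.5 ± 11.3. psmc1 stood at 34.2 ± 14.1, 34.1 ± 16.5 and 23.6 ± 9.45, and psmc1b at 19.5 ± 11.8, 17.9 ± 7.87 and 21.01 ± 13.9. The psme4 genes stood at 20.9 ± 13.4, 22.9 ± 9.39 and 19.7 ± 9.99, and at 10.2 ± 7.58, 9.17 ± 6.16 and 6.96 ± 7.60 (SD, n = 8 each). Reads with more than 1 best position were discarded by the authors, so the split between near-identical copies is uncertain.

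To ask whether proteasome genes moved with the genotype, the 50 genes were first summed per library. The sum ranged from 1463 to 2036 with a median of 1842 in wild-type, from 1731 to 2888 with a median of 2277 in IT325 and from 1654 to 2194 with a median of 1981 in fr105. One IT325 library lay at or below the highest wild-type library, as did 4 fr105 libraries, so neither mutant was apart from wild-type. The mean was 1834 ± 180 in wild-type fish, 2277 ± 329 in IT325 and 1944 ± 226 in fr105 (SD, n = 8 each), which is 1.24 times wild-type in IT325 and 1.06 times in fr105. Within set P1 the IT325 ratio was 1.28 and within P2 1.21. The fr105 ratio was 1.137 in P1 and 0.986 in P2, so its direction differed between the sets.

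**Figure D2:**
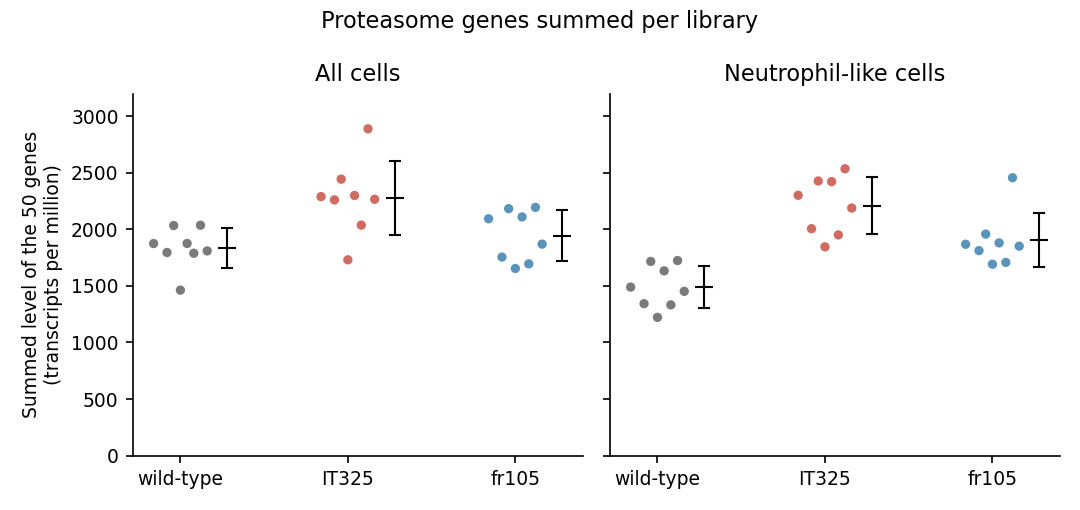
Summed level of the 50 genes in each library (vertical axis, TPM) for all cells and for neutrophil-like cells, with 1 point per library and beside them the mean with bars for the SD. Over all cells the genotypes overlap, and in neutrophil-like cells the 8 IT325 libraries (1845 to 2535) lie above the 8 wild-type libraries (1222 to 1724).

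The composition of the libraries differed between the genotypes. Haemoglobin genes took 0.713 to 8.75% of the transcripts in wild-type, 8.44 to 14.7% in IT325 and 0.0465 to 7.28% in fr105, and they enter the denominator. The median haemoglobin share was 11.6% for IT325 libraries, 5.32% for wild-type ones and 0.777% for those of fr105. How far haemoglobin alone moved the sums was not tested. With haemoglobin and mitochondrially encoded genes left out of the total, the IT325 sum was 1.37 times wild-type, with the lowest IT325 library (3101) above the highest wild-type one (3040), and the fr105 sum was 1.06 times wild-type. With kidney tubule-like, erythroid-like and mitochondria-led cells left out, an alternative chosen after seeing the data, the IT325 libraries (lowest 2290) lay above all wild-type libraries (highest 2144), and the ratio was 1.42 for IT325 and 1.13 for fr105. With at least 3000 transcripts per cell the ratios were 1.19 and 1.01. Cells thinned to 1500 transcripts each gave a ratio of 1.27 for IT325 and 1.08 for fr105.

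The sum was also split by part of the complex. The members of the alpha and beta rings, which lack some subunits, summed to 768 ± 76.5 in wild-type fish, 989 ± 156 in IT325 and 783 ± 77.4 in fr105. The members of the regulatory particle, also incomplete, summed to 682 ± 94.7, 842 ± 154 and 738 ± 96.2. The ranges of the genotypes overlapped for both, and the ratio of core to cap was not tested.

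Gene by gene, 30 of the 50 members passed the filter on low counts, and they hold 84.6% of the member transcripts. The 20 others, among them psmb5, the chaperones and most activators, were too sparse to be tested. Between IT325 and wild-type, 8 of the 30 passed edgeR's quasi-likelihood test with Benjamini-Hochberg adjustment over all genes, and all 8 were higher in IT325. The 8 make 26.7% of the members tested, beside 21.8% of all 3296 genes tested that passed in either direction and 11.5% that passed as higher (10.3% as lower). At an unadjusted p under 0.05 there were 16 members, beside 35.8% of all genes. All 30 members had a fitted log2 fold change above 0, with a median of 0.50, beside a median of 0.0035 over all genes tested. A gene could pass the filter through the genotype in which it was high. With no filter on low counts, 43 of the 50 had a fitted change above 0, with a median of 0.35. Among the 30, psmb3, psma2 and psmc1 had a slightly lower mean TPM in IT325, without the TMM scaling of the fit. The libraries of the 2 genotypes overlapped for each of the 30, while 5.25% of all genes had libraries that did not overlap. Among all 50 members, tested or not, 39 had a higher mean in IT325 and 11 a lower one.

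**Figure D3:**
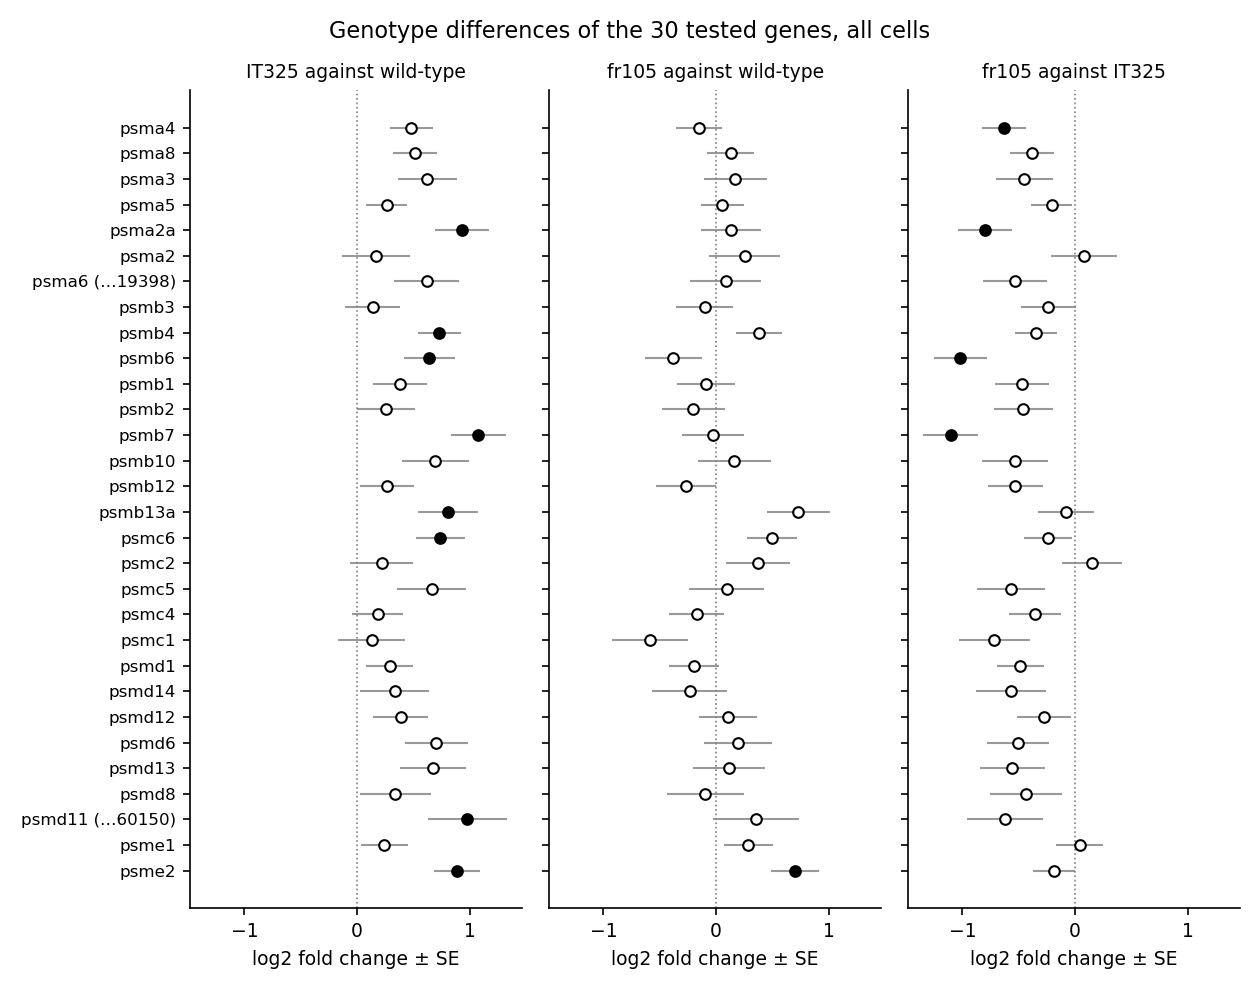
Log2 fold change of the 30 tested members over all cells (horizontal axis, log2 scale, bars for 1 SE), in IT325 against wild-type, fr105 against wild-type and fr105 against IT325, with filled points for adjusted p under 0.05. Every point of the first panel lies above 0, while 18 of the second and 3 of the third do.

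The rise in IT325 included 3 of the 6 tested beta ring genes. psmb7 ranged from 21.7 to 60.2 with a median of 28.8 in wild-type, from 39.8 to 112 with a median of 62.2 in IT325 and from 27.4 to 49.4 with a median of 33.7 in fr105. Most wild-type libraries lay below all IT325 ones, but the highest wild-type libraries reached into the IT325 range. psmb7 rose by 1.07 ± 0.24 (log2 fold change ± SE) in IT325, the largest of the 30 fitted changes in this comparison over all cells (edgeR quasi-likelihood test with Benjamini-Hochberg adjustment, adjusted p = 0.0017).

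psmb7 also differed in level between cell classes. It stood at 74.3 in erythroid-like and 41.5 in neutrophil-like cells when the cells of a class were pooled, and erythroid-like cells were more numerous in IT325, whose part in the change was not tested. Without the kidney tubule-like, erythroid-like and mitochondria-led cells the log2 fold change was 0.84 (edgeR, adjusted p = 0.0088). Within neutrophil-like cells the mean was 41.5 ± 14.1 in wild-type and 45.6 ± 31.9 in IT325 (SD, n = 8 each), and the gene was too sparse there to be tested.

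psmb4, a structural subunit of the beta ring, ranged from 33.8 to 103 with a median of 62.6 in wild-type and from 66.995 to 154 with a median of 90.4 in IT325. Its IT325 libraries overlapped the upper wild-type ones. It rose by 0.73 ± 0.19 in IT325 (edgeR, adjusted p = 0.0065). psmb6 ranged from 38.1 to 96.4 with a median of 62.6 in wild-type, from 60.7 to 129 with a median of 79.5 in IT325 and from 11.6 to 68.1 with a median of 48.9 in fr105. It rose by 0.64 ± 0.23 in IT325 (edgeR, adjusted p = 0.041). This call was lost in 17 of the alternatives tried, several single libraries left out among them, and kept in 10. psmb3, which shares the ring with them and had the highest level in it, stood at 89.8 ± 26.7 in wild-type and 89.2 ± 19.7 in IT325, with a log2 fold change of 0.14 ± 0.24 that did not pass.

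In the alpha ring, 1 of the 7 tested genes passed between IT325 and wild-type. psma2a ranged from 16.8 to 48.4 with a median of 30.1 in wild-type, from 30.6 to 66.4 with a median of 56.9 in IT325 and from 22.8 to 92.9 with a median of 34.5 in fr105. Except for the lowest, replicate 11, the IT325 libraries lay above the highest wild-type value. psma2a rose by 0.93 ± 0.24 (edgeR, adjusted p = 0.0058). Its paralogue psma2 ranged from 14.5 to 69.8 in wild-type and from 12.2 to 59.6 in IT325, with a log2 fold change of 0.17 ± 0.30 that did not pass. The difference between the paralogues was not tested, and psma2 was singled out as a paralogue pair. Of the psma6 genes only ENSDARG00000019398 was tested, with a log2 fold change of 0.62 ± 0.29 that did not pass (edgeR, adjusted p = 0.12).

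**Figure D4:**
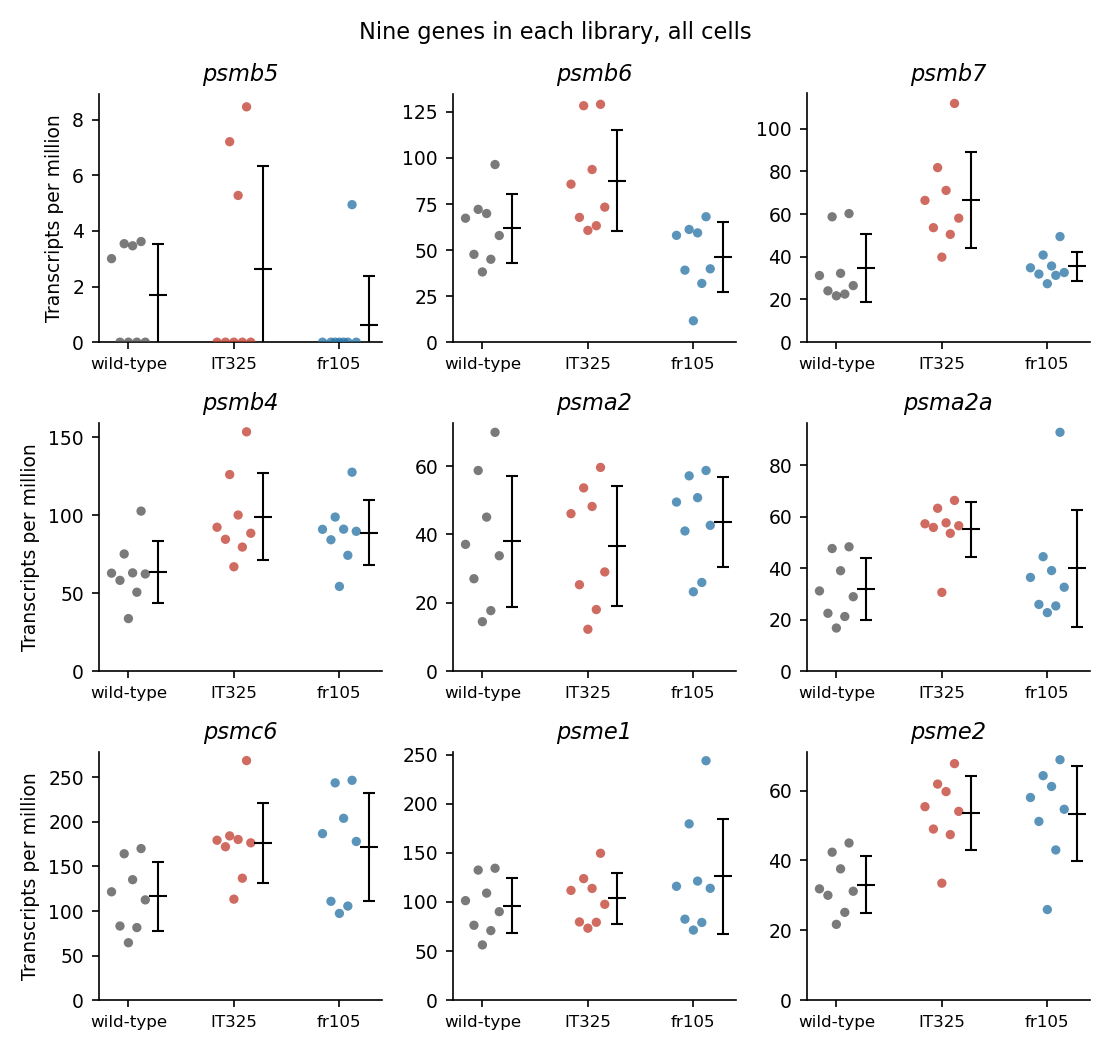
Level over all cells in each library (vertical axes, TPM, a scale for each gene) of psmb5, psmb6, psmb7, psmb4, psma2, psma2a, psmc6, psme1 and psme2, with 1 point per library and beside them the mean with bars for the SD, ended at 0. The IT325 points are shifted upwards for psmb7, psma2a and psmb4 and those of both mutants for psme2, while psma2 and psme1 overlap throughout.

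In the cap, psmc6 and 1 psmd11 gene passed. psmc6 ranged from 64.5 to 170.1 with a median of 117 in wild-type, from 113 to 269 with a median of 178 in IT325 and from 97.3 to 247 with a median of 182.5 in fr105. The mutant medians were alike and both ranges reached below the highest wild-type library. psmc6 rose by 0.74 ± 0.22 in IT325 (edgeR, adjusted p = 0.015). The psmd11 gene ENSDARG00000060150, a scaffold subunit of the lid, ranged from 5.37 to 51.1 with a median of 21.1 in wild-type and from 16.9 to 77.1 with a median of 44.7 in IT325. It rose by 0.98 ± 0.35 (edgeR, adjusted p = 0.043). This call was lost in 19 of the alternatives tried, several single libraries left out among them, and kept in 8. The other psmd11 gene stood at 26.01 ± 11.1 in wild-type fish, 29.05 ± 16.1 in IT325 and 17.04 ± 10.8 in fr105 and was not tested. The other 4 tested ATPases and 6 tested non-ATPase genes did not pass.

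psme2, which with psme1 forms the interferon-inducible activator in mammals, was the only member that passed in both mutants against wild-type. It ranged from 21.7 to 45.0 with a median of 31.5 in wild-type, from 33.5 to 67.7 with a median of 54.7 in IT325 and from 25.9 to 68.9 with a median of 56.3 in fr105. Most libraries of both mutants lay above the wild-type ones. psme2 rose by 0.89 ± 0.20 in IT325 (edgeR, adjusted p = 0.0019) and by 0.70 ± 0.21 in fr105 (adjusted p = 0.017). The contrasts share the wild-type libraries and are not independent. In fr105 the call was lost without fr105 replicate 2, under DESeq2, with no filter on low counts and within either set. Its partner psme1 ranged from 56.3 to 134.3 in wild-type, from 73.3 to 150 in IT325 and from 71.4 to 244 in fr105, and its log2 fold changes of 0.24 ± 0.21 and 0.28 ± 0.22 did not pass.

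Of the 4 beta genes that are not constitutive subunits, psmb13a, a histocompatibility-linked beta gene of fish, passed in IT325. It ranged from 8.38 to 39.0 with a median of 27.9 in wild-type, from 19.3 to 57.7 with a median of 42.5 in IT325 and from 11.6 to 59.7 with a median of 45.99 in fr105. The genotypes overlapped over most of their ranges. It rose by 0.81 ± 0.27 in IT325 (edgeR, adjusted p = 0.030), a call that was lost in 11 of the alternatives tried and kept in 16. psmb10, the inducible counterpart of psmb7, had 32.4 ± 18.4 in wild-type and 49.9 ± 13.4 in IT325, and psmb12 had 39.3 ± 12.7 and 43.0 ± 14.8, and neither passed over all cells. Of the genes that are not subunits, psme3ip1, a partner of an activator in mammals, had 9.87 ± 5.66 in wild-type and 14.9 ± 8.82 in IT325 (SD, n = 8 each) and was too sparse to be tested. Without these 6 genes the sum was 1717 ± 160 in wild-type fish, 2121 ± 319 in IT325 and 1810 ± 218 in fr105.

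Between fr105 and wild-type, psme2 was the sole member that passed, 1 of 30, or 3.33%, beside 23.9% of all genes tested. The median log2 fold change of the members was 0.10, with 18 of 30 above 0, and over all genes it was 0.022. No member had libraries that did not overlap, against 4.49% of all genes, and 11.6% of all genes passed as higher and 12.3% as lower. The beta ring was centred below 0, at -0.095, and the base ATPases at 0.094, but no gene of either passed. At an unadjusted p under 0.05 there were 3 members, beside 34.6% of all genes. Over all 50, the mean was higher in fr105 for 23 and lower for 27.

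Direct comparison of the mutants gave 4 members that passed out of 30, each lower in fr105. This is 13.3%, beside 28.7% of all genes tested, with 13.4% that passed as lower and 15.3% as higher. The share of members that passed as lower thus lay at that of all genes. The median log2 fold change of fr105 against IT325 was -0.46, with 27 members below 0, beside -0.033 over all genes, and no member had libraries apart (5.95% of all genes did). psmb7 fell by 1.102 ± 0.24 (edgeR, adjusted p = 0.0013), psmb6 by 1.02 ± 0.23 (adjusted p = 0.0017), psma2a by 0.80 ± 0.24 (adjusted p = 0.013) and psma4 by 0.63 ± 0.19 (adjusted p = 0.015) on the log2 scale. All 4 belong to the core particle, which gave 7 alpha ring and 6 beta ring genes of the 30 tested. Whether the core differed from the other parts was not tested. psmb6 and psmb7 are its catalytic subunits that could be tested. Erythroid-like cells numbered 75 in IT325 and 7 in fr105, and their part in these changes was not tested. Without the kidney tubule-like, erythroid-like and mitochondria-led cells 3 of 26 members passed, beside 683 of all 2936 genes. The log2 fold changes were -0.69 for psmb7, -0.95 for psmb6 and -0.93 for psma2a (edgeR, adjusted p = 0.028, 0.0088 and 0.0064). That of psma4 was -0.56 and did not pass (adjusted p = 0.053).

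psma4 ranged from 33.8 to 139.7 with a median of 82.3 in wild-type, from 87.1 to 159 with a median of 108.5 in IT325 and from 61.6 to 116 with a median of 81.7 in fr105. It did not pass between either mutant and wild-type. Whether the effect of a genotype differed between the sets was tested as an interaction. No member passed for either mutant, beside 0% of all genes for IT325 and 0.941% for fr105. At an unadjusted p under 0.05 there were 2 of 30 members for IT325 and 1 of 30 for fr105. The share of all genes at that threshold was not computed, so these counts have no background.

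Between cell classes the summed level spanned a wider range than between genotypes. Pooled over cells, the 50 genes summed to 3479 TPM in cluster 3, which had no class name. Genes that led it included flt3 and cd34, which are genes of progenitors, and TOP2A and mki67, which are genes of dividing cells. Of the markers, 11 of the 17 for neutrophils and 6 of the 10 for progenitors were raised in it. In a finer clustering (resolution 2), 32 cells led by TOP2A formed a cluster that was named neutrophil-like. The sum was 2586 in macrophage-like, 1926 in neutrophil-like, 1619 in erythroid-like, 1553 in B cell-like, 1303 in T cell-like and 1010 in kidney tubule-like cells. These are descriptions of classes built from the same cells, with no test. The pooled order depends on the genotypes in each class and on the denominator. Among wild-type cells alone erythroid-like cells had 1592, neutrophil-like cells 1522 and B cell-like cells 1507. As means of libraries (2 to 24 per class) the levels were 2264 in macrophage-like, 1867 in neutrophil-like, 1571 in B cell-like and 1497 in erythroid-like cells. T cell-like cells had 1357 and kidney tubule-like cells 985. Without haemoglobin and mitochondrially encoded genes the order of these means turned, at 3492 in erythroid-like, 3344 in macrophage-like and 2547 in neutrophil-like cells. Kidney tubule-like cells then had 2369, B cell-like cells 2100 and T cell-like cells 1853. For cluster 3 the level without those genes was not computed. Cluster 3 also had deep cells, with a median of 9259 transcripts, beside 7601 in macrophage-like and 8418 in erythroid-like cells.

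**Figure D5:**
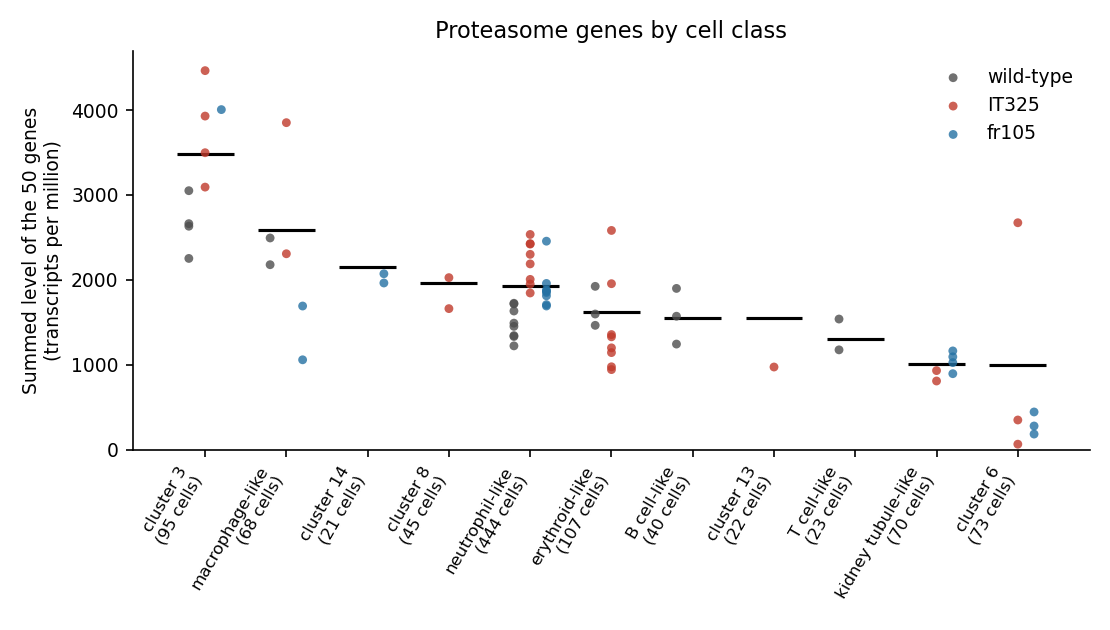
Summed level of the 50 genes by cell class (vertical axis, TPM), with 1 point for each library that had at least 5 cells of the class, coloured by genotype, and a bar at the level of all its cells pooled. With all genes in the denominator cluster 3 is highest and kidney tubule-like cells are low, an order that turns for several classes without haemoglobin and mitochondrially encoded genes, and within cluster 3 the 4 IT325 libraries (3093 to 4466) lie above the 4 wild-type libraries (2252 to 3051).

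The higher level in cluster 3 was spread over the complex. Of the 50 genes, 44 were higher there than in neutrophil-like cells, and 29 had their highest level of all classes in it. Over the 44 members with at least 20 transcripts in neutrophil-like cells, the median ratio was 1.88. psme3, which encodes a nuclear activator, stood at 25.7 in cluster 3 and 4.73 in neutrophil-like cells, on 27 and 13 transcripts. psma4 stood at 180 and 83.4, and psmb10 at 82.7 and 39.3.

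The exceptions were psmb13a, at 43.7 in cluster 3 and 53.9 in neutrophil-like cells, psmf1, which encodes an inhibitor, at 9.50 and 16.8, both psme4 genes, and the sparse psmb5 and psmb11b. In erythroid-like cells psmb13a stood at 7.26, on 9 transcripts. psma5 of the alpha ring stood in erythroid-like cells at 17.8 beside 57.2 in neutrophil-like cells. These genes were singled out after their values were seen.

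Within cluster 3, the summed level was 2649 ± 326 in wild-type (SD, n = 4 libraries with at least 5 cells) and 3747 ± 589 in IT325 (n = 4), and the libraries did not overlap. Only 1 fr105 library had enough cells, at 4006. The cells of cluster 3 held a median of 8765 transcripts in wild-type and 12161 in IT325. In the finer clustering the cluster led by flt3 and cd34 held 19 wild-type and 31 IT325 cells. That led by TOP2A and mki67 held 17 and 7. The part of depth and of this make-up was not tested. In erythroid-like cells the summed level was 1662 ± 236 in wild-type (n = 3) and 1435 ± 561 in IT325 (n = 8), and the IT325 libraries ranged from 942 to 2582 around the wild-type ones. In macrophage-like cells, with 2 libraries for each genotype, the means were 2336, 3080 and 1375 in wild-type, IT325 and fr105. Whether the classes differed in the effect of the genotype was not tested.

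Neutrophil-like cells were the only class found in all 24 libraries, with 180 wild-type, 114 IT325 and 150 fr105 cells. The clusters behind the name were not the same in each genotype: 94 of the 114 IT325 cells came from cluster 4, which held 1 other cell, while clusters 1 and 2 held all wild-type cells (122 and 58) and nearly all fr105 cells (80 and 69). Cluster 14, with 21 cells that were all fr105, had 12 of the 17 neutrophil markers raised. It got no class name and is outside the class, at a pooled sum of 2151 TPM. In the finer clustering a cluster of 22 fr105 cells was named neutrophil-like. The part of this choice in the ratios below was not tested. The sum ranged from 1222 to 1724 with a median of 1471 in wild-type, from 1845 to 2535 with a median of 2244 in IT325 and from 1692 to 2456 with a median of 1860 in fr105. The IT325 libraries lay above all wild-type libraries, and 2 fr105 libraries reached into the wild-type range. The means of 1489 ± 187, 2209 ± 253 and 1903 ± 240 (SD, n = 8 each) give ratios to wild-type of 1.48 and 1.28. For fr105 the ratio was 1.505 in set P1 and 1.09 in set P2.

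Depth was higher in both mutants. The median transcripts per neutrophil-like cell were 3584 in wild-type fish, 7621 in IT325 and 5858 in fr105. Haemoglobin took 0.161 to 0.952% of their transcripts in wild-type, 0.891 to 1.69% in IT325 and 0.0445 to 0.338% in fr105, so it was higher than in wild-type in IT325 and lower in fr105. Markers of other cell types differed as well. The 18 macrophage markers summed to 258 to 520 TPM in wild-type, 517 to 1370 in IT325 and 351 to 913 in fr105, with 7, 4 and 4 of them at 0. The 11 innate lymphocyte markers summed to 1143 to 2086, 607 to 888 and 532 to 863 in the same order, with 5, 6 and 5 at 0. With cells thinned to 1500 transcripts the difference between IT325 and wild-type was 949.9 TPM, beside 720.3 TPM unthinned. The part of haemoglobin and of these markers in the result was not tested.

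In these cells 6 members could be tested, and 2 passed between IT325 and wild-type. This is 33.3%, beside 37.9% of all 1568 genes tested, with 19.6% that passed as higher and 18.3% as lower. psma8, an alpha ring gene, ranged from 10.8 to 105.1 with a median of 49.1 in wild-type and from 79.6 to 124.6 with a median of 94.2 in IT325. It rose by 0.82 ± 0.29 (edgeR, adjusted p = 0.025). psmc6 ranged from 26.1 to 173 with a median of 87.3 in wild-type and from 98.1 to 279 with a median of 174 in IT325, and it rose by 0.86 ± 0.32 (edgeR, adjusted p = 0.028). Both overlapped between the genotypes. The other 4 tested members, psmb3, psmb4, psmb6 and psme1, had log2 fold changes of 0.31 to 0.72 and did not pass. The median of the 6 was 0.63, beside 0.020 over all genes. At an unadjusted p under 0.05 there were 3 of the 6, beside 47.8% of all genes.

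Over all 50 members in neutrophil-like cells, the mean was higher in IT325 for 45 and lower for 5. Of the 6 tested members 0 had libraries that did not overlap, beside 9.50% of all genes tested. The share over genes that did not pass the filter was not computed. psma2a, which was not tested, was the single member of the 50 whose libraries did not overlap. It ranged from 0 to 25.7 in wild-type, from 35.7 to 86.5 in IT325 and from 7.37 to 47.7 in fr105. Its 98 transcripts were too few to pass the filter. In the fit with no filter on low counts its log2 fold change was 2.30 ± 0.50 (edgeR, adjusted p = 0.00032) in IT325 against wild-type, and -1.53 ± 0.43 (adjusted p = 0.022) in fr105 against IT325. The same fit also called psmb10, higher in IT325 than in wild-type by 1.69 ± 0.50 (edgeR, adjusted p = 0.021), and psme2, higher in fr105 than in wild-type by 1.45 ± 0.44 (adjusted p = 0.045), neither of which passed the filter on low counts there. Between IT325 and wild-type it called 3 of the 50 members, beside 935 of all 21227 genes. Between fr105 and wild-type it called 1 of the 50, beside 503 of 21227. Between the mutants it called 1 of the 50, beside 522 of 21227. Whether the share of members differed from that of all genes was not tested.

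Between fr105 and wild-type none of the 6 tested members passed in neutrophil-like cells, beside 19.6% of all genes (9.38% higher and 10.2% lower), and none had libraries apart, beside 5.42%. By edgeR 1 reached an unadjusted p under 0.05 (psmc6, with a log2 fold change of 0.68 ± 0.32), beside 30.8% of all genes, and DESeq2 called 0. The median was 0.43, beside 0.019 over all genes. Between the mutants 0 of 6 passed, beside 26.1% of all genes, and none had libraries apart, beside 5.61%, with psmb6 alone at an unadjusted p under 0.05 (-0.71 ± 0.34) and 0 called by DESeq2. The median was -0.26.

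Genes of the same pathway outside the family were read from a list of 29, of which 14 could be tested over all cells. Between IT325 and wild-type 2 of the 14 rose and 1 fell, between fr105 and wild-type 1 rose and 3 fell, and between the mutants 0 were higher and 2 lower in fr105. Over all genes tested 11.5% rose and 10.3% fell in IT325 and 11.6% rose and 12.3% fell in fr105, so the counts of the list lay near the background. The polyubiquitin gene ubb (ENSDARG00000002369) ranged from 67.5 to 122 in wild-type, from 172 to 276 in IT325 and from 156 to 333 in fr105. Both mutants lay wholly above wild-type, with log2 fold changes of 1.103 ± 0.16 (edgeR, adjusted p = 4.22e-06) and 1.04 ± 0.16 (adjusted p = 2.15e-05). Ubiquitin genes are near-identical repeats, and reads that fit several of them were discarded.

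pomp, the chaperone that matures the core particle, ranged from 42.4 to 107 in wild-type and from 66.0 to 119.5 in IT325, and rose by 0.69 ± 0.21 (edgeR, adjusted p = 0.017). hspa5, a chaperone of the endoplasmic reticulum, fell by 1.26 ± 0.36 on the log2 scale in fr105 (edgeR, adjusted p = 0.012). The ubiquitin fusion gene rps27a fell by 0.37 ± 0.13 and uba1, the enzyme that activates ubiquitin, by 0.49 ± 0.17 in fr105 against IT325 (edgeR, adjusted p = 0.032 and 0.031). The call of rps27a was lost in 10 of the alternatives tried and kept in 17, and that of uba1 was lost in 9 and kept in 17. Without the kidney tubule-like, erythroid-like and mitochondria-led cells rps27a stood at -0.21 and did not pass (edgeR, adjusted p = 0.23), while uba1 passed at -0.55 (adjusted p = 0.024).

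In neutrophil-like cells 10 of the 29 were tested. In IT325, 4 rose, which were ubb by 0.98 ± 0.24, pomp by 0.90 ± 0.37, vcp, the segregase that extracts ubiquitylated proteins, by 0.81 ± 0.29, and uba1 by 0.73 ± 0.23 (edgeR, largest adjusted p = 0.049), beside 19.6% of all genes tested that rose. The call of pomp was lost in 13 of the alternatives and kept in 8, and that of vcp was lost in 6 and kept in 13. In fr105, ubb rose by 0.88 ± 0.24, while psmb8 fell by 0.99 ± 0.29 and hspa5 by 1.91 ± 0.35 (edgeR, largest adjusted p = 0.011). hspa5 was also lower in fr105 than in IT325, by -1.43 ± 0.35 (adjusted p = 0.0022).

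Of the inducible catalytic genes that the rule leaves out, psmb8 fell and psmb9 did not pass. psmb8 stood at 99.0 ± 32.1 in wild-type fish, 49.1 ± 18.8 in IT325 and 49.9 ± 10.995 in fr105, and it fell by 0.90 ± 0.22 and 1.02 ± 0.23 on the log2 scale in the mutants (edgeR, adjusted p = 0.0031 and 0.0017). psmb9 stood at 35.4 ± 15.8, 45.1 ± 6.46 and 42.3 ± 11.4, with log2 fold changes of 0.60 ± 0.23 and 0.39 ± 0.24 (edgeR, adjusted p = 0.058 and 0.25).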

How the data were processed

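Expression in 24 libraries of single WKM cells was analysed. The authors demultiplexed with bcl2fastq 2.17.1.14, aligned with BWA 0.6.2-r126 to Ensembl gene models with extended 3′ ends, kept unique sense reads, counted molecular identifiers and corrected for the pool of 4096 identifiers, so the deposited values are estimated counts (expected counts) of transcripts. Of the 192 barcodes listed per library, the 96 of the filled set were used and those with at least 1500 transcripts kept (1008 cells). Depth per library was 86165 to 519252 transcripts. No doublet caller was run, since wells were sorted singly. Names came from an Ensembl name table that covered 17966 of 23981 genes.

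Cells were clustered (2000 variable genes, 30 components, 15 neighbours, Leiden resolution 1) and clusters named by lists of marker genes. Estimated counts were summed per library and rounded, filtered by edgeR's filterByExpr, scaled by TMM and fitted with all 24 libraries in edgeR 4.0.16 (R 4.3.3) by the quasi-likelihood test, adjusted by Benjamini-Hochberg over all genes with a threshold of 0.05. The scripts were tested on simulated data. DESeq2 1.42.0, other filters, thinning, sets, single libraries left out and a replicate block were alternatives. Values are named for members past the threshold, the 5 highest and 3 lowest, catalytic subunits and paralogues, and for pathway genes past it, of which 1 is not reported here. Members and lists were chosen with earlier results of these data known. No 2 libraries of a genotype agreed within counting noise (smallest chi-square per degree of freedom 3.27 over 84 pairs). Reference sequences were not used here.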

Additional observations from a re-analysis of the deposited data

Results flagged for a closer look

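The sums and named members were checked for a library far from the other 7 of its genotype in 93 groups of 8. Such a library was found in 10. For independent, normally distributed values chance alone gives about 1 in 20 groups. Sparse counts are not so distributed and the sums share genes, so that rate is no background for these 10. Of the 10, 4 were the shallow replicates 4: wild-type replicate 4 had the lowest sum of the 50 genes (1463) and the highest level of psma6 ENSDARG00000013966 (56.3), and fr105 replicate 4 the highest psma2a (92.9) and the lowest psmb13a (11.6). In neutrophil-like cells, fr105 replicate 3 had the highest sum of its genotype (2456). In IT325, psma2a was lowest in replicate 11 (30.6), psmc3ip highest in replicate 3 (16.8) and psmc6 highest in replicate 12 (268.8). Wild-type replicate 2 was the only one of its genotype with psmb11b (5.30), and fr105 replicate 7 the only one of its genotype with psmb5 (4.94).

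Member transcripts also occurred in barcodes that the comparisons do not use. Barcodes with under 1500 transcripts held 231 in wild-type fish, 371 in IT325 and 233 in fr105, which is 1248, 2066 and 1427 TPM. Barcodes outside the filled set held 70, 76 and 38, or 1625, 2118 and 1462 TPM. Pooled over libraries IT325 was the highest in both, but single libraries overlapped and no difference was tested. Under 1500 transcripts they ranged from 927 to 2105 in wild-type, 1237 to 2632 in IT325 and 861 to 1809 in fr105. Outside the filled set they ranged from 751 to 3104, 971 to 2814 and 258 to 2659, with the highest library in wild-type.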

How the results depend on the processing

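Over all cells the 8 calls between IT325 and wild-type, of 30 tested, became 2 of 28 in set P1 alone, beside 408 of all 3348 genes. In set P2 alone they became 2 of 32, beside 352 of 3613. With the IT325 libraries of set P1 against all wild-type they became 3 of 32, beside 420 of 3441. With at least 3000 transcripts per cell they became 5 of 28, beside 514 of 3044. With cells thinned to 1500 transcripts 1 member was tested and called, beside 186 of 772 genes. The single call between fr105 and wild-type became 0 with DESeq2, with no filter and in either set. All genes called there were 805, 1549, 231 (P1) and 730 (P2). The 4 between the mutants became 2 with no filter, 0 in P1, 2 in P2 and 0 thinned. All genes called there were 1580, 208, 663 and 255. The genes tested were 3296 with DESeq2, 23644 with no filter, 3348 in P1, 3613 in P2 and 772 thinned. In neutrophil-like cells the 2 calls between IT325 and wild-type became 1 of 4 in P1, beside 342 of 1412 genes. They became 0 of 7 in P2, beside 350 of 1800, and 0 of 4 with the IT325 libraries of P1, beside 341 of 1428. The 0 of each other comparison became 1 of 50 with no filter, beside 503 (fr105 against wild-type) and 522 (between the mutants) of 21227 genes. Sets have 4 libraries per genotype, and the cause of the other changes was not tested. Thinned neutrophil-like cells gave no count, since no member passed the filter.

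Replicates share only a number (correlations of same-numbered deviations from -0.15 to 0.11). With the replicate as a block the calls were 1, 1 and 2 over all cells (IT325 against wild-type, fr105 against wild-type, between the mutants) and 0, 0 and 0 in neutrophil-like cells. Beside these, 401, 725 and 694 of all 3296 genes were called over all cells, and 384, 298 and 240 of 1568 in neutrophil-like cells. IT325 replicates 9 to 12 have no same-numbered partner, so the block takes them out of the contrasts of IT325. The other IT325 libraries are of set P2, while the same-numbered libraries of wild-type and fr105 are of set P1.

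The difference of the summed level between IT325 and wild-type, 442 TPM, became 1012 without haemoglobin and mitochondrially encoded genes, which shrinks the denominator, and 806 without kidney tubule-like, erythroid-like and mitochondria-led cells (chosen after seeing the data). That between fr105 and IT325, -333, became -853 without those genes. In neutrophil-like cells the IT325 difference of 720.3 became 949.9 thinned, and the fr105 difference of 414 became 680 in P1 and 149 in P2. Without those genes the class levels became 2100 in B cell-like, 1853 in T cell-like, 3492 in erythroid-like, 2369 in kidney tubule-like, 3344 in macrophage-like and 2547 in neutrophil-like cells.

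With single libraries left out, the calls ranged from 5 to 9, 0 to 2 and 4 to 5 over all cells and from 1 to 3, 0 to 0 and 0 to 0 in neutrophil-like cells. The counts of all genes called in these fits are not given here, so the ranges have no background. There were 5 without wild-type replicate 2, IT325 replicate 9 or IT325 replicate 10, and in neutrophil-like cells 1 without wild-type replicates 1 or 2 or IT325 replicates 3 or 12. The summed differences ranged from 354.8 to 520.1, 56.5 to 151 and -411 to -245 over all cells and from 674 to 772, 335 to 448 and -385 to -260 in neutrophil-like cells. Of 958 values of single genes, 786 kept direction and side of the threshold, 172 lost the threshold and 0 reversed. Only genes that had passed in the main fit were counted, with ikzf1 and pathway genes among them. Most of the alternatives left out 1 library, so reversals were unlikely from the start. Members with few transcripts are limited by depth.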
